A study of Mus musculus with 25 samples.

Results

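Markers of inhibitory interneurons were followed in the CA1 region of the hippocampus through all probe sets that the annotation of the Affymetrix mouse genome array names for Gad1, Gad2, Slc32a1, Pvalb, Sst, Vip, Cck, Npy or Reln alone. These 9 genes of the 18193 named on the array had 15 of its 45101 probe sets. Tissue came from 11 handled and 14 non-handled females of the inbred mouse strain Balb c/J, with 1 array for each animal, and H or NH before a number names a handled or non-handled mouse. Handled pups were kept apart from their mothers for 15 min each morning on postnatal days 1 to 14, and non-handled litters were left undisturbed. All mice went through behavioral tests at 8 weeks of age and were killed 2 weeks later. RNA was extracted with RNA/DNA columns from 7 handled and 10 non-handled mice and with Trizol from 4 handled and 4 non-handled mice, and every sample went through a double round of amplification. The extraction label assigns the methods by place in the sample list, the method of each mouse was read from it, and the group sizes obtained in this way are those of the design text. The mice were littermates in part, and handling was applied to whole litters, which were fewer than the mice. With the litter of each mouse unknown here, all tests take mice as independent. The p-values for handling and for correlations between mice can be too small.

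GABAergic interneurons are the inhibitory cells of the hippocampus and a minority of its neurons. They make GABA from glutamate with the decarboxylases encoded by Gad1 and Gad2 and load it into synaptic vesicles with the transporter encoded by Slc32a1. Their subclasses are told apart by calcium-binding proteins and peptides. Pvalb marks fast-spiking cells that contact the soma and axon initial segment of pyramidal cells, Sst marks cells that contact distal dendrites, and Vip marks cells of which many inhibit other interneurons. Cck, Npy and Reln mark further subclasses, and Cck is also transcribed in pyramidal cells. In a dissected region, fewer cells of a type and less RNA per cell cannot be told apart.

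Values are MAS 5.0 signal, which is a background-corrected intensity in linear units with a single scaling factor for each array. Probe sets differ in how well they hybridize, so a level was compared between mice and not between probe sets, and for each gene the probe set with the highest mean signal is called its main one. The mean signal of an array ran from 748 to 834 in handled and from 737 to 910 in non-handled mice. Variance of natural log signal was higher in handled mice, as the paper reports, and the groups did not overlap under either method. With columns it was 3.82 to 4.24 in handled and 2.88 to 3.76 in non-handled mice. With Trizol it was 3.19 to 3.71 and 2.85 to 3.18. Median signal was lower in handled mice, at 79.6 to 95.9 against 94.7 to 135.2 with columns. With Trizol it was 115.9 to 141.9 against 138.5 to 162.8. The part of these shifts in the members was not tested. The 7 measured markers of CA1 pyramidal cells had gene means of 637.5 to 12465, the 7 of CA3 71.6 to 1821, and the 7 of the dentate gyrus 50.5 to 845. These are levels of different probe sets, and the purity of the dissection was not tested. The 8 measured genes expected to be low in brain had gene means of 35.5 to 151, a range that bears on the dimmest probe sets below. One column-extracted array, of the non-handled mouse NH162, stood apart in the natural log of the 3' to 5' signal ratio of Actb, a measure of RNA quality, at 2.24 against 1.07 to 1.47 on the other 24. That array gave the highest signal of its group for Pvalb, Sst, Vip and Npy and the lowest for both probe sets of Gad2 and for the second one of Gad1, and results that rest on it are given with and without it.

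**Figure D1:**
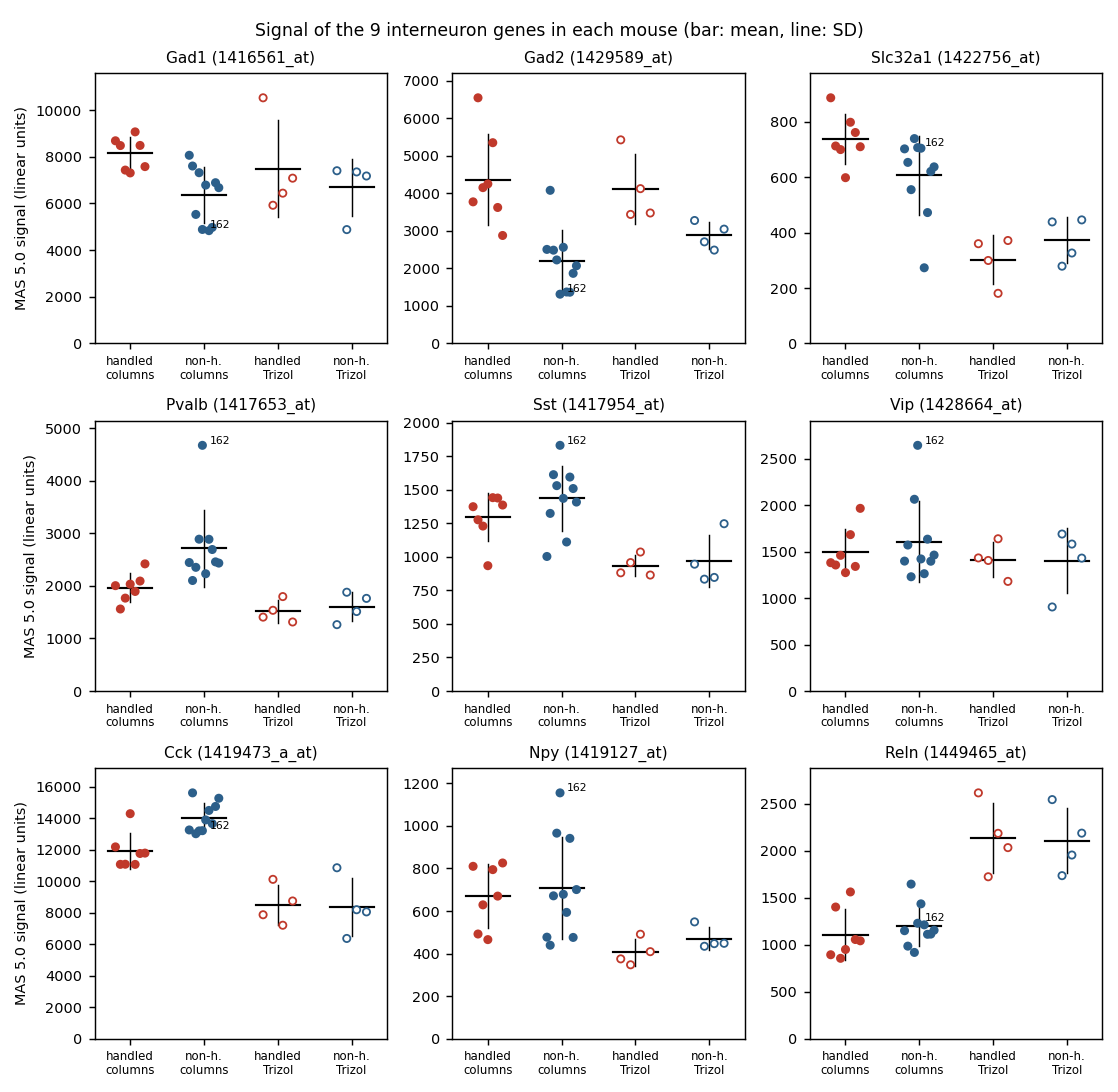
MAS 5.0 signal (linear units) of the main probe set of each of the 9 genes, with 1 point for each mouse, handled left of non-handled, filled for columns and open for Trizol. Black bars are group means and vertical lines are SD (n = 7, 10, 4 and 4 mice). Handled mice lie higher for Gad2, and in column-extracted mice all 7 handled mice lie under the non-handled median of Pvalb.

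The bases before the transcription start are shown for Gad1 and Gad2, which were higher in handled mice and covaried, for Pvalb, which was lower in handled mice, for Vip, whose correlation with Pvalb passed the test with all mice and not without NH162, and for Sst, which holds a full cAMP response element. They were taken from RefSeq (GRCm38.p6), where all 9 genes matched, Pvalb with 2 starts of which the upstream one is shown. Each line holds the 250 bases before the start, 5′ to 3′ on the strand of the gene. Capitals mark any match, on either strand, to the cAMP response element TGACGTCA, to its shorter core TGACG, which overlaps it, or to the TATA box TATAAA.
Gad1: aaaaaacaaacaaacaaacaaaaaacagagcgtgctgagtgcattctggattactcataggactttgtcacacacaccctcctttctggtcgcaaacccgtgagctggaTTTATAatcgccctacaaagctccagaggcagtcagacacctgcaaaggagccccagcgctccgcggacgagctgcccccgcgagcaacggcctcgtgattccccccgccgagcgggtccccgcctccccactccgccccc
Gad2: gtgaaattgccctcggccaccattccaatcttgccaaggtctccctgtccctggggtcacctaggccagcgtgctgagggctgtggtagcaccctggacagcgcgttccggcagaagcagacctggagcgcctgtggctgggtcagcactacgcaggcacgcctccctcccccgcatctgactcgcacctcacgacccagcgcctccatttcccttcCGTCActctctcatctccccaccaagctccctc
Pvalb: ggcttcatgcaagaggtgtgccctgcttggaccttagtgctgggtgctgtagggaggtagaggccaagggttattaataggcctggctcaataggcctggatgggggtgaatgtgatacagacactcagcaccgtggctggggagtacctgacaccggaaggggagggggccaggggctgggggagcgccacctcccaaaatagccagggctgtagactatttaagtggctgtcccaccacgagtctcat
Vip: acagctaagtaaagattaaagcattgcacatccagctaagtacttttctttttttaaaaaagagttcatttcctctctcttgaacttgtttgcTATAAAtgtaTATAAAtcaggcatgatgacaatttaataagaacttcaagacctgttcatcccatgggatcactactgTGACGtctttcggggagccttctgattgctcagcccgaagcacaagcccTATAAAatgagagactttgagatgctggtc
Sst: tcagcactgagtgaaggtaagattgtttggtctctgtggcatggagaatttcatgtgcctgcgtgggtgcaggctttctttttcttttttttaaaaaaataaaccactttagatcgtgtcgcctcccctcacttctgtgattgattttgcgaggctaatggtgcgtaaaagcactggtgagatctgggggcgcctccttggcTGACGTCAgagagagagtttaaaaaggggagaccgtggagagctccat
These stretches lie at chr2:70561879-70562128 on the plus strand for Gad1, chr2:22622077-22622326 on the plus strand for Gad2, chr15:78206401-78206650 on the minus strand for Pvalb, chr10:5638968-5639217 on the plus strand for Vip and chr16:23890845-23891094 on the minus strand for Sst. The full cAMP response element was present in 1.55% of 32851 such stretches of the genome and, of the 9 genes, in Sst alone, where it began 48 bases before the start. The shorter core was present in 17.8% of all stretches and in those of Gad2, Cck, Vip and Sst. The TATA box was present in 12.4% of all stretches and in those of Gad1 and Vip, with 1 match in Gad1 and 3 in Vip. The match of Gad1 lies at -141 from the start and on the opposite strand, and those of Vip lie at -157, -147 and -30. No match was found in the stretch shown for Pvalb.

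Gad2 was higher in handled mice. Gad2 encodes the decarboxylase that is concentrated in synaptic terminals, and its main probe set, 1429589_at, averaged 4274 ± 1078 in the 11 handled and 2382 ± 778 in the 14 non-handled mice (mean ± SD). With columns, the signal ran from 2876 over a median of 4150 to 6543 in handled mice and from 1312 over a median of 2147 to 4079 in non-handled mice. With Trizol, it was 5422, 3437, 4123 and 3475 in handled mice and 3275, 2707, 2487 and 3045 in non-handled mice. All 11 handled mice lay above the non-handled median, 4 of the 7 with columns lay above every non-handled mouse of that method, and with Trizol the groups did not overlap, as was the case with handled mice above in 0.908% of all probe sets and below in 2.94%. The difference was 0.86 ± 0.15 on the log2 scale (SE), or 1.82-fold, with an adjusted p of 0.00032 in limma with extraction as a term. It was 0.81 (adjusted p = 0.00038) without NH162.

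A dimmer probe set of Gad2, 1421978_at, went the same way. It averaged 525 ± 154 in handled and 345 ± 127 in non-handled mice (SD, n = 11 and 14), a log2 difference of 0.68 ± 0.23 (SE, adjusted p = 0.044). With columns, all 7 handled mice lay above the non-handled median, against 2 of 4 with Trizol. In this probe set NH162 had a signal of 64.5, and without that mouse the log2 difference was 0.52 (adjusted p = 0.030). The call was lost (adjusted p of 0.050 to 0.10) when any 1 of 14 other mice was left out, H108, H109, H113, H116, H117, H118, H123, NH142, NH147, NH156, NH157, NH165, NH166 or NH170. It was also lost after quantile normalization (log2 0.72, adjusted p = 0.061) and when the 3' to 5' ratios of Gapdh and Actb were covariates (log2 0.36, adjusted p = 0.18).

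Gad1, the decarboxylase that provides most GABA of the cell body, was higher in handled mice by a smaller amount. Its main probe set 1416561_at averaged 7911 ± 1301 in handled and 6456 ± 1171 in non-handled mice (SD, n = 11 and 14). With columns, the signal ran from 7309 over a median of 8482 to 9068 in handled mice and from 4835 over a median of 6732 to 8064 in non-handled mice, so that all 7 handled mice exceeded the non-handled median. With Trizol, the signals were 10528, 5924, 6442 and 7084 in handled mice and 7402, 4880, 7352 and 7177 in non-handled mice, and only 1 handled mouse exceeded the non-handled median. The log2 difference was 0.30 ± 0.10 (SE, 1.23-fold, adjusted p = 0.047). This call was lost under quantile normalization (log2 0.26, adjusted p = 0.11), when arrays were brought to equal mean and variance (log2 0.12, adjusted p = 0.47), and when any 1 of 15 mice was left out (adjusted p of 0.054 to 0.089). These were H108, H109, H110, H113, H116, H117, H118, H123, NH144, NH156, NH162, NH163, NH165, NH166 and NH170. The second probe set of Gad1, 1416562_at, averaged 730 ± 154 in handled and 732 ± 308 in non-handled mice and did not pass the test (log2 0.11 ± 0.22, adjusted p = 0.79, and -0.07 without NH162).

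Slc32a1 gave no such difference in its main probe set. Signal of 1422756_at ran from 598 over a median of 712 to 886 in handled and from 273 over a median of 645 to 739 in non-handled mice with columns. With Trizol, it was 360, 299, 181 and 371 in handled mice and 438, 279, 326 and 446 in non-handled mice. The log2 difference was 0.11 ± 0.15 (SE, adjusted p = 0.66), with 0.32 ± 0.16 within columns and -0.32 ± 0.26 within Trizol.

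Of the 3 dim probe sets of Slc32a1, 2 fell in handled mice. Of these, 1447574_s_at is of a type that can bind several transcripts. Signal of 1447574_s_at averaged 36.3 ± 35.4 in the 11 handled and 105 ± 59.1 in the 14 non-handled mice (SD), with a log2 difference of -1.96 ± 0.50 (SE, adjusted p = 0.011), and with columns 6 of 7 handled mice lay below every non-handled mouse. The call was lost with the 3' to 5' ratios as covariates (log2 -1.69, adjusted p = 0.053). Signal of 1447573_at averaged 8.10 ± 4.55 in handled and 17.7 ± 6.69 in non-handled mice, with a log2 difference of -1.30 ± 0.34 (SE, adjusted p = 0.012). With Trizol all 4 handled mice (8.37 to 16.7) lay below all 4 non-handled mice (16.9 to 26.9), as in 2.94% of all probe sets, and this call was lost under quantile normalization (log2 -0.76, adjusted p = 0.12) and with arrays brought to equal mean and variance. The third, 1456457_at, averaged 35.6 ± 23.9 in handled and 33.2 ± 27.9 in non-handled mice and did not pass the test (log2 0.19 ± 0.48, adjusted p = 0.84). All 3 averaged under 151, the highest mean among the genes expected to be low in brain. Over the 8 genes of that list the median log2 difference was -0.69 and 2 fell (-0.32 and none after quantile normalization), and their summed signal was 327 to 583 in handled and 421 to 957 in non-handled mice. Over all probe sets the median log2 difference was -0.15, against -0.01 over the upper 50% of mean signal. The part of this general shift in the 2 falls of Slc32a1 was not tested. After removal of group means, none of the 3 dim probe sets passed a test of correlation with the main one (r = 0.01, 0.37 and -0.39 for 1447574_s_at, 1456457_at and 1447573_at over 25 mice, permutation adjusted p of 0.95, 0.19 and 0.18 over 9 pairs of probe sets).

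Pvalb was lower in handled mice. Pvalb encodes parvalbumin, the calcium buffer of fast-spiking interneurons, and 1417653_at averaged 1802 ± 331 in handled and 2399 ± 814 in non-handled mice (SD, n = 11 and 14). With columns, the signal ran from 1561 over a median of 2005 to 2420 in handled mice and from 2103 over a median of 2451 to 4675 in non-handled mice, and 6 of 7 handled mice lay below every non-handled mouse. No member was without overlap under columns, as was the case with handled mice above in 0.502% and below in 1.13% of all probe sets. With Trizol, it was 1406, 1536, 1797 and 1314 in handled mice and 1263, 1880, 1513 and 1763 in non-handled mice, and the groups overlapped. The log2 difference was -0.32 ± 0.10 (SE, adjusted p = 0.040). Without NH162, which had the signal of 4675, it was -0.26 (adjusted p = 0.039). The call was lost (adjusted p of 0.050 to 0.091) when any 1 of 13 other mice was left out, H108, H109, H110, H113, H116, H117, H118, H131, NH144, NH147, NH157, NH165 or NH166, and when the 3' to 5' ratios were covariates (log2 -0.24, adjusted p = 0.057).

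The markers of the other subclasses did not pass the test with both extraction methods in the fit. Sst, the peptide somatostatin of dendrite-targeting cells, averaged 1165 ± 233 in handled and 1302 ± 312 in non-handled mice (SD, n = 11 and 14), a log2 difference of -0.11 ± 0.09 (SE, adjusted p = 0.48). Vip, vasoactive intestinal peptide, averaged 1466 ± 220 in handled and 1551 ± 409 in non-handled mice, a log2 difference of -0.04 ± 0.11 (adjusted p = 0.85), which was 0.016 without NH162. Npy, neuropeptide Y, averaged 573 ± 180 in handled and 641 ± 231 in non-handled mice, a log2 difference of -0.10 ± 0.14 (adjusted p = 0.67), which was -0.05 without NH162. Reln, the secreted glycoprotein reelin, averaged 1482 ± 596 in handled and 1454 ± 490 in non-handled mice in 1449465_at, a log2 difference of -0.08 ± 0.10 (adjusted p = 0.67), and its dim probe set 1458020_at, with a mean signal of 66.7, had a log2 difference of -0.78 ± 0.51 (adjusted p = 0.33). The means of 1449465_at pool the methods, which averaged 1158 with columns and 2121 with Trizol, while the log2 difference has extraction as a term. For Sst, Vip, Npy and the main probe set of Reln the handled and non-handled ranges overlapped under both extraction methods.

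With columns, Sst ran from 934 over a median of 1373 to 1440.3 in handled mice and from 1002 over a median of 1472 to 1830.1 in non-handled mice, and all 7 handled mice lay below the non-handled median. Vip ran from 1275 over 1382 to 1968 in handled mice and from 1231 over 1443 to 2646 in non-handled mice. Npy ran from 465 over 670.1 to 826 in handled mice and from 439 over 675 to 1156 in non-handled mice. The medians of Vip and Npy thus lay close together, and the highest signal of all 3 peptides was that of NH162. Reln ran from 854 over 1040.1 to 1560.1 in handled mice and from 916 over 1150.1 to 1643 in non-handled mice. With Trizol, Npy ran from 347 to 491 in handled mice and from 434 to 549 in non-handled mice, and 3 of 4 handled mice lay below every non-handled mouse.

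Cck, cholecystokinin, passed the test within columns and not over both methods. With columns, 1419473_a_at ran from 11071 over a median of 11765 to 14295 in handled mice and from 13020 over a median of 13780 to 15618 in non-handled mice, and 6 of 7 handled mice lay below every non-handled mouse. With Trizol, it was 7870, 10120, 7203 and 8745 in handled mice and 10857, 6363, 8189 and 8052 in non-handled mice. The log2 difference was -0.15 ± 0.08 (SE, adjusted p = 0.21) over both methods and -0.24 ± 0.08 (adjusted p = 0.046) within columns. The call within columns was lost after quantile normalization (log2 -0.20, adjusted p = 0.11). Arrays brought to equal mean and variance put it past the threshold over both methods (log2 -0.37, adjusted p = 0.0097). The handling-by-extraction interaction for Cck was not called (log2 -0.28 ± 0.16, adjusted p = 0.73).

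In all, 6 of the 15 probe sets passed the test at an adjusted p under 0.05, 3 higher and 3 lower in handled mice. Of all 45037 probe sets tested, 11.5% passed, 3.58% higher and 7.93% lower. Of the 9 main probe sets 3 passed, Gad1 and Gad2 higher and Pvalb lower, and the median log2 difference over the 9 was -0.08, against -0.15 over all probe sets. All 9 lay in the upper 50% of mean signal, where the median was -0.01 and 19.1% of probe sets were called, 8.31% higher and 10.8% lower, and the same 3 were called in a fit of these probe sets alone. The balance of calls over all probe sets depended on the scaling, with 1614 higher and 3571 lower as deposited and 1319 higher and 1595 lower after quantile normalization, where the median difference was 0.02. Gad2 (log2 0.81), Pvalb (log2 -0.35) and 1447574_s_at of Slc32a1 (log2 -1.56) were the members called after quantile normalization. Without the extraction term, and likewise with a prior without trend, those called were the main probe set of Gad2 and the 2 dim ones of Slc32a1, and Gad1 and Pvalb were not among them.

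**Figure D2:**
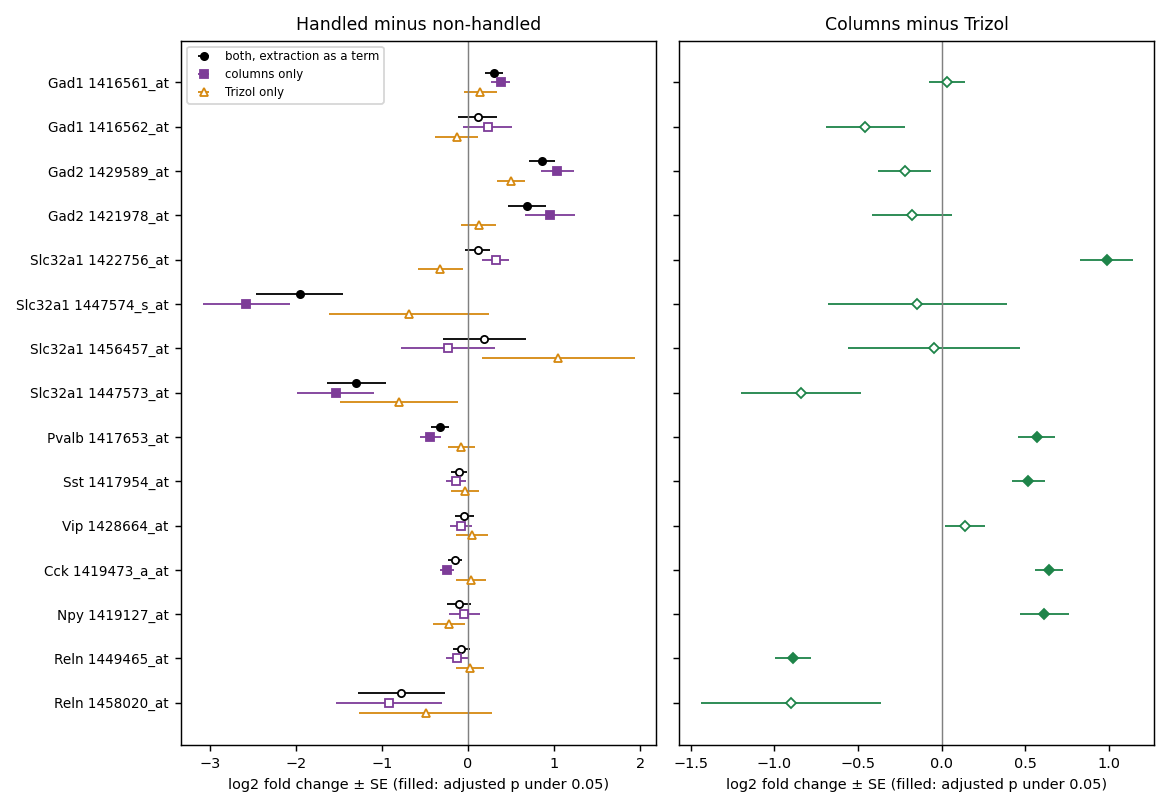
Log2 differences with standard errors for the 15 probe sets, handled minus non-handled on the left and columns minus Trizol on the right, with filled symbols at an adjusted p under 0.05. The main probe set of Gad2 lies at 0.86 with both methods, 1.04 within columns and 0.50 within Trizol, and the Trizol symbols are all open.

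Within columns 7 of the 15 probe sets were called, 3 higher and 4 lower, where 12% of all probe sets were, 4.36% higher and 7.65% lower. The log2 differences of the called ones were 1.04 ± 0.19 (SE) and 0.96 ± 0.29 for Gad2, 0.38 ± 0.11 for Gad1, -0.44 ± 0.12 for Pvalb, -0.24 ± 0.08 for Cck and -2.57 ± 0.51 and -1.54 ± 0.44 for Slc32a1. Of these, 1421978_at of Gad2 (adjusted p = 0.051), Cck (adjusted p = 0.11) and 1447573_at of Slc32a1 (adjusted p = 0.16) were not called after quantile normalization, and with arrays brought to equal mean and variance Gad1 (adjusted p = 0.31) and 1447573_at (adjusted p = 0.13) were not. Within Trizol, with 4 mice in each group, limma called none of the 15 and 0 of 45037 probe sets (0%), of which 2870 had an unadjusted p under 0.05. There the main probe set of Gad2 differed by 0.50 ± 0.16 on the log2 scale (adjusted p = 0.75) and Pvalb by -0.08 ± 0.16 (adjusted p = 0.94). The interaction of handling with extraction was called for 0.0511% of probe sets and for none of the 15 by limma, where 1 had an unadjusted p under 0.05. That one was the main probe set of Slc32a1 (log2 0.65 ± 0.30, adjusted p = 0.64), so a difference between the methods in the handling effect was not shown for any member.

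Columns and Trizol differed in 6 of the 9 main probe sets and in none of the 6 others, 5 higher and 1 lower with columns, where 39.8% of all probe sets differed, 16.5% higher and 23.3% lower. Slc32a1, Cck, Npy, Pvalb and Sst were higher with columns, by 0.99 ± 0.16, 0.64 ± 0.08, 0.61 ± 0.15, 0.57 ± 0.11 and 0.52 ± 0.10 on the log2 scale (SE, largest adjusted p = 0.00082, for Npy). Reln was lower with columns by a log2 difference of -0.89 ± 0.11 (adjusted p = 2.7e-08). For Cck the 17 column-extracted mice (11071 to 15618) lay above all 8 Trizol-extracted mice (6363 to 10857), as was the case for 3.33% of probe sets. For the main probe set of Reln the 17 mice with columns (854 to 1643) lay below all 8 with Trizol (1722 to 2614), as was the case for 8.15%. Gad1 (log2 0.03 ± 0.11), Gad2 (-0.22 ± 0.16) and Vip (0.14 ± 0.12) did not pass the test, with adjusted p of 0.86, 0.30 and 0.39. The same 6 were called after quantile normalization, with the same signs, while over all probe sets the balance turned from 7430 higher and 10500 lower as deposited to 10756 higher and 8091 lower. Markers of some other cells moved with the method as well. Higher with columns were 6 of 7 CA1 pyramidal, 6 of 6 oligodendrocyte, 6 of 7 astrocyte and 6 of 7 microglial genes (2, 4, 4 and 7 after quantile normalization). Of 5 excitatory neuron genes 3 were higher. In the other lists few were called, with 1 higher and 2 lower of 7 CA3 genes and 1 lower of 7 dentate genes. Of 6 Cajal-Retzius genes 1 was higher, of 6 endothelial genes 1 was higher, and 0 of 5 choroid plexus genes were called. Of the 8 genes expected to be low in brain 1 was higher and 1 lower. Of all genes 41.4% differed, 23.7% higher and 17.7% lower. The summed signal of the microglial list was 16982 to 29290 with columns and 8038 to 11839 with Trizol. The methods were used on separate sets of mice, and method and animals cannot be told apart.

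Other genes of inhibitory neurons were also tested for handling, and their counts were read against 14.3% of all 18193 genes, 4.51% higher and 9.79% lower. None of 8 measured genes of GABA metabolism and transport passed the test. The one nearest to it was Abat, the GABA transaminase, with 3269 in handled and 2746 in non-handled mice (mean signal, log2 0.25 ± 0.09, adjusted p = 0.068). Of 15 lineage factors 1 rose and 1 fell. Npas3, a PAS-domain transcription factor, rose by 0.36 ± 0.09 on the log2 scale (1249 in handled and 970 in non-handled mice, adjusted p = 0.0076), and Dlx2, a homeodomain factor of interneuron precursors that had mean signals of 61.5 and 120, had a log2 difference of -1.06 ± 0.29 (adjusted p = 0.016), which was not called after quantile normalization (log2 -0.76, adjusted p = 0.11).

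Of 32 other genes of interneuron subclasses 1 rose and 3 fell. Nxph1, a neurexin ligand, had 733 in handled and 591 in non-handled mice as mean signal (log2 0.32 ± 0.09, adjusted p = 0.015). Cbln4, a synaptic organizer, had 510 and 720 (log2 -0.42 ± 0.11, adjusted p = 0.014) and was not called with arrays brought to equal mean and variance (adjusted p = 0.069). Nos1, neuronal nitric oxide synthase, had 1369 and 1765 (log2 -0.33 ± 0.10, adjusted p = 0.026). Cort, cortistatin, had 25.0 and 52.6 (log2 -1.03 ± 0.33, adjusted p = 0.038) and was not called after quantile normalization (adjusted p = 0.19). The median log2 difference of these 32 genes was 0.13, against -0.12 over all genes.

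Of 16 receptors for these peptides and reelin 3 fell and none rose. Sstr2, a somatostatin receptor, had 255 in handled and 412 in non-handled mice as mean signal (log2 -0.68 ± 0.12, adjusted p = 0.00050). Cckbr, the cholecystokinin receptor that prevails in brain, had 287 and 390 (log2 -0.42 ± 0.13, adjusted p = 0.040), and Cckar had 18.1 and 38.7 (log2 -1.56 ± 0.52, adjusted p = 0.045). After quantile normalization Sstr2 alone was called (log2 -0.62, adjusted p = 0.0027). Of 8 genes of perineuronal nets, the matrix around many Pvalb cells, Hapln1 rose by 0.51 ± 0.12 on the log2 scale (967 in handled and 682 in non-handled mice, adjusted p = 0.0051). Bcan, brevican, whose probe set is of a type that can bind several transcripts, fell, with 5206 in handled and 9159 in non-handled mice (log2 -0.71 ± 0.09, adjusted p = 3.1e-06). Without NH162 the counts of these 5 lists were the same.

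Between extraction methods, 11 of the 32 other interneuron genes were higher with columns and 4 lower, where 41.4% of all genes differed, 23.7% higher and 17.7% lower. Of the 16 receptors 2 were higher and 5 lower, of the 15 lineage factors 1 and 3, of the 8 genes of GABA metabolism and transport 1 and 1, and of the 8 genes of perineuronal nets 2 and 2. After quantile normalization these counts were 13 and 4, 4 and 4, 2 and 0, 2 and 3, and 2 and 2. Adarb2, an RNA-editing family member of Vip and related cells, had 588 with columns and 1470.2 with Trizol as mean signal (log2 -1.31 ± 0.10, adjusted p = 2.3e-12), while Cxcl14, a chemokine, had 806 and 391 (log2 1.06 ± 0.12, adjusted p = 2.4e-09). The somatostatin receptor Sstr3 had 357 with columns and 177 with Trizol (log2 1.07 ± 0.16, adjusted p = 1.4e-06), and the reelin receptor Lrp8 had 350.2 and 611 (log2 -0.83 ± 0.14, adjusted p = 5.7e-06). All 4 were called with the same sign after quantile normalization. Dlx1, a homeodomain factor, had 155.6 with columns and 228.4 with Trizol (log2 -0.60 ± 0.19, adjusted p = 0.0088) and was not called after quantile normalization (adjusted p = 0.45).

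Markers of other cells were set beside the members, where 14.3% of all genes were called for handling, 4.51% higher and 9.79% lower. None of 7 CA1 pyramidal, 7 CA3, 7 dentate, 6 Cajal-Retzius and 6 oligodendrocyte genes passed the test for handling. Of 7 astrocyte genes Aqp4 rose, and of 7 microglial genes P2ry12 rose, neither of them after quantile normalization. Of 5 excitatory neuron genes 3 fell, Neurod2 (log2 -0.76 ± 0.10), Nrgn (-0.63 ± 0.12) and Camk2a (-0.24 ± 0.08, adjusted p = 0.049), and the summed signal of this list did not overlap with columns, at 9475 to 12094 in handled and 12257 to 15007 in non-handled mice. Of 6 endothelial genes 3 fell and of 5 choroid plexus genes 2 fell (2 and none after quantile normalization). Without NH162, 2 of the 5 excitatory neuron genes fell, as did 1 CA3 gene and 1 microglial gene. No marker gene was at 0. The part of these shifts in the differences of Gad1, Gad2 and Pvalb was not tested.

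Mice of the same group and extraction method differed little in Cck and most in Gad2 among the 9 main probe sets. After removal of the means of the 4 groups, the SD on the log2 scale was 0.17 for Cck, 0.23 for Sst, 0.26 for Gad1, 0.27 for Pvalb and for Reln, 0.30 for Vip, 0.37 for Slc32a1 and for Npy and 0.42 for Gad2. The median over the upper 50% of probe sets by mean signal was 0.32. Cck lay at the 6.26th percentile of these probe sets and Gad2 at the 69.5th. The dim probe sets 1447574_s_at and 1456457_at of Slc32a1 and 1458020_at of Reln had an SD of 1.29, 1.19 and 1.39, against a median of 0.70 over all probe sets.

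Within groups, Gad1 covaried with Gad2 and Slc32a1, Pvalb with Vip and Npy, and Sst with Npy, while Gad2 and Pvalb ran opposite ways. Correlations were taken over the 25 mice after removal of the 4 group means and tested by permutation within those groups, with adjustment over the 36 pairs. In 6 pairs the adjusted p was under 0.05, 5 of them positive and 1 negative. No share of called pairs over genes in general was taken, and the members are ranked among such genes below. Under some other settings more negative pairs were called, as given below. Mice with more Gad1 had more Gad2 (r = 0.64, rho = 0.65, permutation p = 0.00059 and 0.0011, adjusted p = 0.011 and 0.026) and more Slc32a1 (r = 0.62, rho = 0.63, permutation p = 0.0030 and 0.0027, adjusted p = 0.021 and 0.031). The first of these was 0.68 without the 2 mice farthest from the median of Gad1, 0.70 within columns and 0.69 within Trizol. For Gad1 and Slc32a1 the 3 values were 0.58, 0.65 and 0.59. The call of Gad1 with Gad2 was lost with the 3' to 5' ratios as covariates (r = 0.56, permutation adjusted p = 0.055). By rho it was also lost without NH162 (rho = 0.59, permutation adjusted p = 0.051). The call of Gad1 with Slc32a1 was lost without NH144 or NH165, with arrays brought to equal mean and variance (r = 0.59), and with the mean of all probe sets of each gene (r = 0.25).

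Pvalb and Vip rose and fell together (r = 0.75, rho = 0.60, permutation p = 0.00044 and 0.0035, adjusted p = 0.011 and 0.031), and so did Sst and Npy (r = 0.63, rho = 0.63, permutation p = 0.0018 and 0.0014, adjusted p = 0.016 and 0.026). For Pvalb and Vip r was 0.72 within columns, 0.85 within Trizol and 0.52 without the 2 mice farthest from the median of Pvalb, and for Sst and Npy it was 0.71, 0.20 and 0.50. By ranks, Pvalb and Vip did not pass the permutation test within columns (rho = 0.31, adjusted p = 0.55), and rho was 0.86 within Trizol. For Sst and Npy rho was 0.75 within columns and 0.36 within Trizol. Pvalb and Npy were correlated by r alone (r = 0.57, rho = 0.39, permutation p = 0.0061 and 0.062, adjusted p = 0.036 and 0.24), with -0.13 within Trizol and 0.31 without the 2 farthest mice. All 3 of these calls were lost without NH162, where r was 0.59 for Pvalb with Vip, 0.55 for Sst with Npy and 0.37 for Pvalb with Npy. The call of Sst with Npy was also lost without H116, and that of Pvalb with Npy without H109, H123, H130, NH142, NH155, NH157 or NH167 and with scaled arrays.

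Gad2 and Pvalb, whose main probe sets differed in opposite directions between handled and non-handled mice, were also opposed within the groups (r = -0.66, rho = -0.56, permutation p = 0.0012 and 0.0050, adjusted p = 0.015 and 0.036). The correlation was -0.76 within columns, -0.16 within Trizol, -0.57 without the 2 mice farthest from the median of Gad2 and -0.62 without NH162. After quantile normalization it was -0.64, where 9 pairs were called, 4 of them negative, and the lowest r of any pair was -0.67. With the mean of all probe sets of each gene it was -0.76, where 7 pairs were called, 3 of them negative, and the lowest r was -0.77. The correlation of Gad2 with Pvalb was -0.42 (adjusted p = 0.15) after the 3' to 5' ratios of Gapdh and Actb were also removed, and of the 6 pairs 2 were called then, Gad1 with Slc32a1 (r = 0.65) and Sst with Npy (r = 0.68). Over the 8 mice with Trizol none of the 36 pairs passed the exact permutation test, with r between -0.82 and 0.86. With only 576 permutations there, a single pair could not have passed the adjustment at any r, so this count decides nothing about single pairs.

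**Figure D3:**
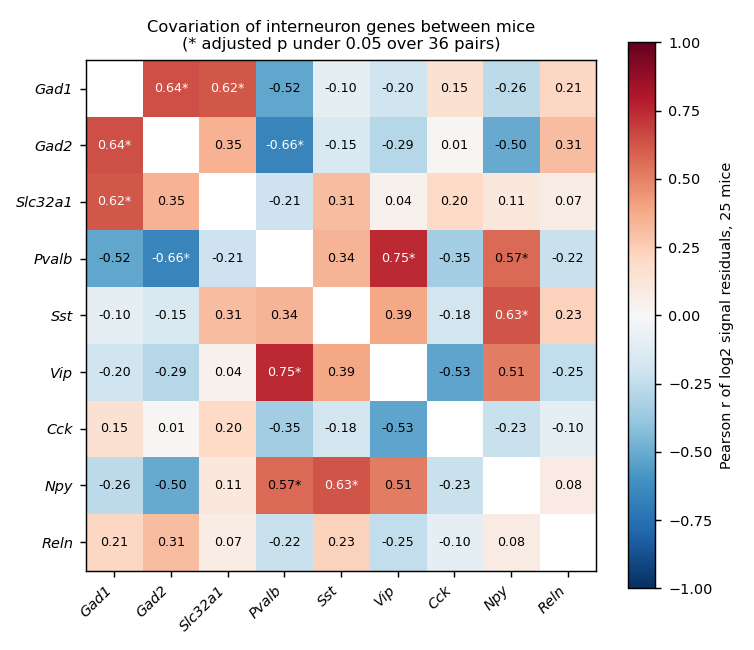
Pearson r between the 9 main probe sets over 25 mice after removal of the 4 group means, with stars at an adjusted p under 0.05. Gad1 with Gad2 (0.64) and with Slc32a1 (0.62), and Pvalb with Vip (0.75) and with Npy (0.57), and Sst with Npy (0.63) are the starred positive pairs, and Gad2 with Pvalb (-0.66) is the one starred negative pair.

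**Figure D4:**
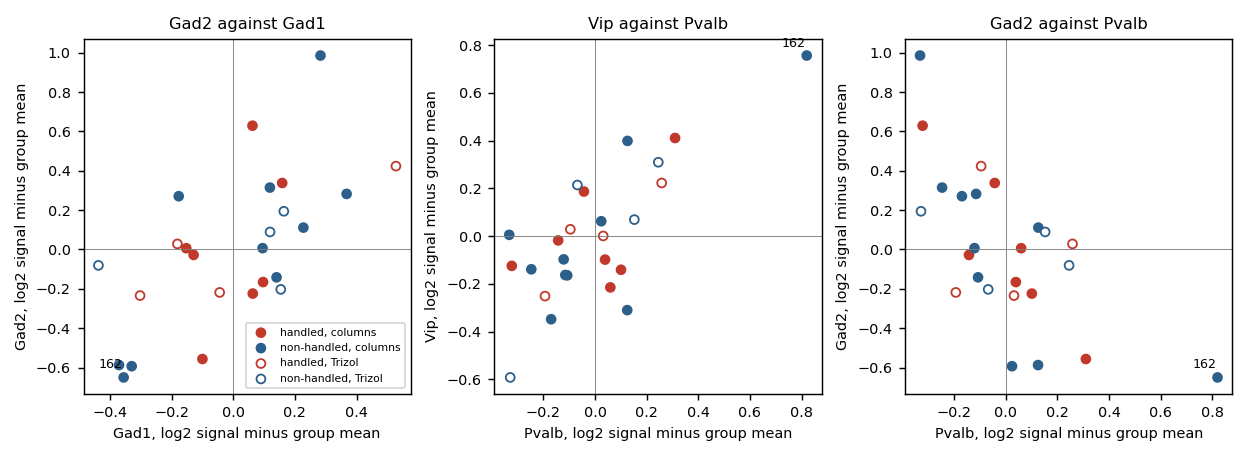
Log2 signal minus the group mean for 3 pairs of genes, with 1 point for each mouse, red for handled and blue for non-handled, filled for columns and open for Trizol. Mouse NH162 is marked and lies at the far end of Pvalb in the plots against Vip (r = 0.75 with and 0.59 without it) and Gad2 (r = -0.66 with and -0.62 without it).

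Genes in general gave a wide range of correlations with the members. Over 11355 genes in the upper 50% of mean signal, r with Pvalb lay between -0.65 and 0.62 from the 5th to the 95th percentile, with Gad1 between -0.54 and 0.60 and with Gad2 between -0.58 and 0.58. Counted from the highest r with Gad1, Gad2 had rank 356 and Slc32a1 rank 445. Gad1 had rank 331 with Gad2 and 84 with Slc32a1. Vip had rank 189 and Npy 798 with Pvalb, and Pvalb had rank 6 with Vip and 444 with Npy. Npy had rank 81 with Sst, and Sst 188 with Npy. Pvalb had rank 11074 with Gad2, and Gad2 10851 with Pvalb. None of the 5 genes most like each member by r was another member. They were Fam13c (0.90), Rrs1, Slc39a6, Cyb561 and Dync1i1 for Gad1, and Prps2 (0.86), Obi1, St6galnac5, Cacna1b and Slc25a46 for Gad2. For Slc32a1 they were Plvap (0.81), Cnnm3, Rnf214, Ak5 and S1pr3. For Pvalb they were Ppil3 (0.91), Bud31, Mrpl52, Snhg6 and Ggh, which lay between 0.81 and 0.86 without NH162. For Sst they were Sulf2 (0.81), Nbdy, Rph3a, Rnf217 and Mfsd13a, for Vip Lum (0.80), Lin7a, Fam227b, Snhg6 and Mrps11, and for Npy Kif5a (0.82), Acadl, Ddn, Gnas and S100b. Without NH162 the 5 of Vip lay between 0.60 and 0.78 and the 5 of Npy between 0.73 and 0.77. For Cck they were Pald1 (0.77), Gid8, B4galnt1, Tmem192 and Retreg2, and for Reln Kat2a (0.64), Sun2, Decr2, Plxna2 and Nsun6.

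Gad2 and Pvalb also moved in opposite ways with markers of glia within the groups. Of 99 relations of the 9 genes with 11 marker lists, 5 had an adjusted p under 0.05 for r and none for rho, and none of the 99 had one for r after quantile normalization. They were Gad2 with the astrocyte list (r = -0.63, rho = -0.61, permutation p = 0.0021 and 0.0029, adjusted p = 0.042 and 0.091) and the microglial list (r = -0.67, rho = -0.56, permutation p = 0.0019 and 0.011, adjusted p = 0.042 and 0.11), and Pvalb with the astrocyte list (r = 0.75, rho = 0.64, permutation p = 0.00025 and 0.0015, adjusted p = 0.025 and 0.091). Pvalb with the oligodendrocyte list (r = 0.62, rho = 0.58, permutation p = 0.0012 and 0.0046, adjusted p = 0.042 and 0.091) and Npy with the astrocyte list (r = 0.64, rho = 0.56, permutation p = 0.0016 and 0.0070, adjusted p = 0.042 and 0.099) were the others. Without the 2 mice farthest from the median of the gene the 5 values of r lay between 0.48 and 0.60 in size. They lay between 0.70 and 0.83 in size within columns, and within Trizol they were -0.07, 0.09, 0.46, 0.18 and 0.39, so that the sign of Gad2 with the microglial list turned. Without NH162 they were -0.56, -0.65, 0.61, 0.55 and 0.51, and 0 of the 99 relations were then called, as also without H109 or NH155 and against 1 without H110, H123, NH142, NH163 or NH166. The summed astrocyte signal was 45937 to 66147 in handled and 42705 to 87164 in non-handled mice, with the highest value in NH162, and the part of tissue makeup in these correlations was not tested.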

How the data were processed

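CA1 tissue of 25 mice was measured on 1 array each. The authors read the scans into Affymetrix Expression Console 1.1 and deposited linear MAS 5.0 signal intensity with 1 scaling factor per array, no equalized distributions and no detection calls. No read depth applies to arrays, and the number of mice limits the precision.

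The log2 of the deposited signal was tested two-sided with limma 3.58.1 in R 4.3.3 (trended prior, handling and extraction as terms), with Benjamini-Hochberg adjustment over 45037 probe sets, 64 controls left out. Probe sets were named from the platform annotation, with 34958 having 1 gene, 932 several and 9211 none, and 34754 symbols were updated through gene identifiers. Lists used 1 probe set per gene, the one with the highest mean signal. Correlations used residuals from the means of the 4 handling-by-extraction groups and 100000 permutations within them (all 576 within Trizol), in Python 3.11.15 with numpy 2.4.6, pandas 2.3.3 and scipy 1.17.1. Matplotlib 3.10.9 drew the plots. Both tests were checked on simulated data.

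Alternatives were quantile normalization, scaling of arrays to equal mean and variance, addition of an offset of 32, no extraction term, array weights, 3' to 5' ratios as covariates, the upper 50% of mean signal, a prior without trend, each method alone, Spearman rho, the mean of all probe sets of a gene and leaving out each mouse. The 3' to 5' ratios in correlations, the correlations between probe sets of a gene and the lists without NH162 were added after seeing the data. Members and gene lists were chosen with earlier results of these data known. Named are all member probe sets, the 5 genes most correlated with each member, and from each list up to 4 genes with the smallest p for handling and up to 2 for extraction, of which those that passed the test or came nearest are given. Behavioral measures were not analysed here.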

Additional observations from a re-analysis of the deposited data

Results flagged for a closer look

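Of 60 groups of mice (15 probe sets in 4 groups), 9 held a mouse far from the others by Dixon's 95% criterion, which chance exceeds in about 1 in 20 groups. Mouse NH162 gave 3 of these among the non-handled mice with columns. Its signal was 112.6 for 1416562_at of Gad1, with the next mouse at 423, and 64.5 for 1421978_at of Gad2, with the next at 218. For Pvalb it was 4675, with the next at 2889. The same array had the natural log 3' to 5' ratio of Actb of 2.24, and the part of RNA quality in these values was not tested.

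The other 6 fell on 4 mice. In NH144, non-handled with Trizol, the main probe set of Gad1 gave 4880, with the other 3 mice at 7177 to 7402, and 1447574_s_at of Slc32a1 gave 9.57, with the next at 88.9. In NH138, of the same group, Npy gave 549, with the next at 448. In NH165, non-handled with columns, the main probe set of Slc32a1 gave 273, with the next at 472. In H116, handled with columns, Sst gave 934, with the next at 1229, and Cck gave 14295, with the next at 12183.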

How the results depend on the processing

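The main probe set of Gad2 kept its call in every alternative other than within Trizol. The number of member probe sets called for handling, 6, was 3 with the 3' to 5' ratios as covariates, without the extraction term, with a prior without trend and after quantile normalization, and 3 to 6 with 1 mouse left out. Within columns it was 4 after quantile normalization and 2 to 7 with 1 mouse left out, against 7. Over all probe sets, 5185 calls for handling became 2301 without the extraction term and 2914 after quantile normalization, and 5408 within columns became 3515 to 6479 with 1 mouse left out. The interaction, with 23 calls, had 13 after quantile normalization and 11 with scaled arrays. Of 36 correlated pairs, 6 were called, against 2 with the covariates, 0 within Trizol and 3 to 9 with 1 mouse left out. The count was 9 after quantile normalization, 7 with the mean of all probe sets of a gene, 7 within columns and 5 with scaled arrays. Of 99 relations with marker lists, 5 were called, against 0 after quantile normalization, 1 with scaled arrays, 9 with the offset, 8 within columns, 0 within Trizol and 0 to 9 with 1 mouse left out. Within Trizol, the 576 permutations did not allow a single pair or relation to pass the adjustment at any r.

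Of called values, those of Pvalb with Npy (r = -0.13) and of Gad2 with the microglial list (r = 0.09) turned sign within Trizol. The other signs that turned were of values that had not passed the test. For handling, with the covariates, log2 differences were -0.10 for 1416562_at of Gad1, -0.068 for 1456457_at of Slc32a1, 0.053 for Vip and 0.057 for Npy. Within Trizol they were -0.13 for 1416562_at of Gad1, -0.32 for the main probe set of Slc32a1, 0.043 for Vip, 0.035 for Cck and 0.0215 for the main probe set of Reln, and within columns -0.23 for 1456457_at of Slc32a1. With 1 mouse left out, 1416562_at of Gad1 ranged from -0.066, without NH162, to 0.18, and Vip from -0.10 to 0.016 without NH162. For extraction, quantile normalization and scaling gave -0.19 and -0.0295 for the main probe set of Gad1, 0.36 and 0.32 for 1447574_s_at and 0.45 and 0.46 for 1456457_at of Slc32a1, and scaling gave 0.014 for 1421978_at of Gad2. The cause of these changes was not tested.

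Of the values for single probe sets and pairs under other settings, 192 kept direction and call, 33 lost the call, 2 gained it and 18 turned. Correlations without the 2 mice farthest from the median had no test and were counted among these by direction alone. With 1 mouse left out, 468 kept both, 55 lost the call and 2 turned. The number of mice, 8 with Trizol, and the signal of the dim probe sets limit the detection of differences.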
